A study of Mus musculus with 21 samples.

Results

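The genes described here are 41 interferon-stimulated genes, followed in Ba/F3 cells carrying JAK2-V617F, with no interferon treatment named in the labels. They were chosen as a named list of antiviral, antigen processing and regulatory genes, with interferon-inducible GTPases other than Mx1 and Mx2 and the class I antigen presentation genes left out. The rule itself names no measured value, but the list was drawn up with earlier results of these data known. Of the 41 genes, 39 were listed in at least 1 of the 4 deposited tables, out of 14698 genes listed in any table, and 36 were listed in all of them. Ifit3 and Cmpk2 were in no table and were not analysed here.

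Type I interferon binds the receptor pair IFNAR1 and IFNAR2, whose kinases JAK1 and TYK2 phosphorylate STAT proteins, STAT2 among them. STAT2 and IRF9 are subunits of ISGF3, the factor that binds the interferon-stimulated response element (ISRE), while STAT dimers bind the gamma-activated sequence (GAS). A low, constant flow through this pathway keeps interferon-stimulated genes transcribed in cells that have met no virus, which is what tonic means here, and blood cells in particular keep such a basal level.

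Ba/F3 is a mouse cell line described as an interleukin-3 dependent pro-B line, here expressing JAK2-V617F, the point mutant of the kinase JAK2 found in myeloproliferative neoplasms. RNA was sequenced from 21 libraries in 7 groups of 3, all from these cells. DMSO_treated, Ruxo_treated and CHZ_treated cells were kept for 6 h with DMSO, 1 μM ruxolitinib or 1 μM CHZ868. Ruxolitinib is a type I inhibitor that binds JAK kinases in the active conformation, and CHZ868 is a type II inhibitor that binds the inactive one. Ruxo_wash and CHZ_wash cells had 1 h of the same dose of ruxolitinib or CHZ868, were washed and then spent 6 h without inhibitor. Each washout experiment had its own group of cells taken through DMSO and washing, called DMSO_wash for ruxolitinib and DMSO_wash_exp3 for CHZ868. The study was about how JAK2 becomes more phosphorylated while ruxolitinib is bound, and these libraries compared transcription with each inhibitor present and after its removal. No source used here says whether the 3 libraries of a group came from separate cultures, so p-values measure the spread between these libraries only, which may be technical.

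The values are log2 CPM (reads of a gene scaled to a common library size), which the authors normalized in each table separately. Levels are therefore compared within a table, and across tables only where stated. The DMSO_treated and CHZ_treated libraries share a table of 11670 genes, the Ruxo_treated libraries have one of 11868, the CHZ_wash and DMSO_wash_exp3 libraries one of 11355, and the Ruxo_wash and DMSO_wash libraries one of 13085. The first 3 tables held between 7880000 and 10670000 reads per library on their listed genes, and the depth of the libraries in the ruxolitinib washout table is unknown.

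A pair of libraries stood apart from their groups before any inhibitor comparison was made. Transcripts of the mitochondrial genome took 3.53% of the summed CPM in Ruxo_treated replicate 2 but 1.7% and 1.72% in the other replicates of that group. In DMSO_wash_exp3 replicate 3 they took 5.33%, against 2.84% and 2.27%. The share also differed between the groups, at 1.36% to 1.42% in DMSO_treated and 4.93% to 6.37% in CHZ_treated libraries. In Ruxo_treated libraries it was 1.7% to 3.53%, over 14 listed mitochondrial genes where the DMSO_treated table has 17. CHZ_wash libraries, at 1.76% to 2.14%, lay wholly below DMSO_wash_exp3, at 2.27% to 5.33%, while Ruxo_wash overlapped DMSO_wash in this share. Its part in the results was not tested. The counts of the ruxolitinib 6 h and CHZ868 washout comparisons are given with and without these libraries.

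The labelled cell type was checked against marker genes. Of 11 B-lineage markers only Cd79a and Cd79b were listed in the CHZ868 6 h table, and Pax5 and Ebf1 were not, so the pro-B label had little support in the listed genes. All 4 genes of cytokine dependence (Il3ra, Csf2rb, Csf2rb2 and Jak2) were listed, with Csf2rb highest at a mean of 10.5 log2 CPM. Of other cell types that can respond to interferon, 3 of 7 macrophage markers were listed (Cd68, Csf1r and Fcgr1), with Adgre1, Lyz2, Cd14 and Mertk absent from that table. Plasmacytoid dendritic cell markers had 1 of 5 listed (Tcf4), T cell markers 1 of 5 (Lck), mast cell and basophil markers 1 of 6 (Gata2), and NK cell and fibroblast markers 0 of 4 each. Gata2 (mean 9.45 log2 CPM) and Tcf4 (6.5) lay above Cd79a (4.33), the highest B-lineage marker, and Fcgr1 (3.42) and Lck (2.42) below. The genes of cytokine dependence summed to 3400 to 3470 CPM in DMSO_treated, 1780 to 1970 in DMSO_wash_exp3 and 611 to 628 in DMSO_wash libraries. In the ruxolitinib washout table Jak2 was their highest, at 8.14 log2 CPM. These tables were normalized separately, and the cause of the difference was not tested.

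The sequences below are shown because they match the core letters of elements through which interferon signalling is known to act. They are 60-base stretches of the promoters in RefSeq, on build GRCm38.p6, printed 5′ to 3′ on the strand of the gene, with matches in capitals. The ISRE core searched was GAAANNGAAA and the GAS core TTCNNNGAA, on both strands, in windows from 250 bases before to 50 bases after each start site. Stat2, the ISGF3 subunit, has 1 ISRE core from 222 to 213 bases upstream of its start site (chr10:128270251-128270310, plus strand). Ddx60, a helicase of antiviral RNA sensing, has 2 between 53 and 10 bases upstream (chr8:61928026-61928085, plus strand). Oas1a, a 2′-5′ oligoadenylate synthetase, has 2 that overlap within 20 to 5 bases upstream (chr5:120907526-120907585, minus strand). Ifit1, which binds viral RNA, has 2 between 104 and 76 bases upstream (chr19:34640770-34640829, plus strand). Isg15, a ubiquitin-like protein, has 3 between 78 and 57 bases upstream, of which neighbouring ones overlap (chr4:156200856-156200915, minus strand). Rsad2, which encodes the antiviral enzyme viperin, has 1 from 120 to 111 bases upstream (chr12:26456538-26456597, minus strand). Irf1, a transcription factor known to respond to STAT dimers, has a GAS core from 90 to 82 bases upstream (chr11:53769899-53769958, plus strand).
Stat2: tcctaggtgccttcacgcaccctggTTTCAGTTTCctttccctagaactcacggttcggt
Ddx60: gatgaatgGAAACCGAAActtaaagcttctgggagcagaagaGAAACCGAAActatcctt
Oas1a: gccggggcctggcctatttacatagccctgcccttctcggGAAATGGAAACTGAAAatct
Ifit1: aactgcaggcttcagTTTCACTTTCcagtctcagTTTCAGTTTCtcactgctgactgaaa
Isg15: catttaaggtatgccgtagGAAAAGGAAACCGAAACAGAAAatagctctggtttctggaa
Rsad2: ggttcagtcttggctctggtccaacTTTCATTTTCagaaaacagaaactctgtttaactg
Irf1: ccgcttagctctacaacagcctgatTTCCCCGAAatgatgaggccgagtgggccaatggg

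Promoter windows were at hand for 31 of the 41 genes. The ISRE core was found in 14 of them (45.2%), against 3.99% of all 27025 genes with a window and 3.44% of all 32851 windows. The GAS core was found in 8 (25.8%), against 9.55% of all genes and 8.3% of all windows. Besides the genes printed, the ISRE core stood in the windows of Ifit3, Irf2, Ifih1, Ddx58, Trim21, Bst2, Psme1 and Cxcl10, and the GAS core in those of Irf2, Adar, Oas1a, Ifit2, Isg20, Bst2 and Ifi35. In Bst2 a GAS and an ISRE core overlapped. The genes without a window were Dhx58, Zbp1, Oas2, Usp18, Parp9, Parp14, Mx1, Mx2, Rtp4 and Ifi27. A match describes the letters of the window and is not a measured binding site.

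CHZ868 for 6 h lowered most of these genes. Among the 39 listed, 36 fell and 1 rose in limma's test at an adjusted p under 0.05, and Psme1 and Cxcl10 did not pass. Over all genes of the table, 26.4% passed as lower and 26.8% as higher. The median log2 difference of the 39 genes was -1.45, a 2.73-fold lower level, against -0.008 for all genes. The CHZ_treated libraries lay wholly below the DMSO_treated libraries for 36 of the 39 genes, where 30.1% of all genes did so, and wholly above for 2, where 29.6% did. Summed over the list, the genes held 4581, 4519 and 4478 CPM in DMSO_treated and 2077, 1993 and 2039 CPM in CHZ_treated libraries. In bulk RNA, fewer cells expressing a gene and less RNA of it per cell cannot be told apart.

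**Figure D1:**
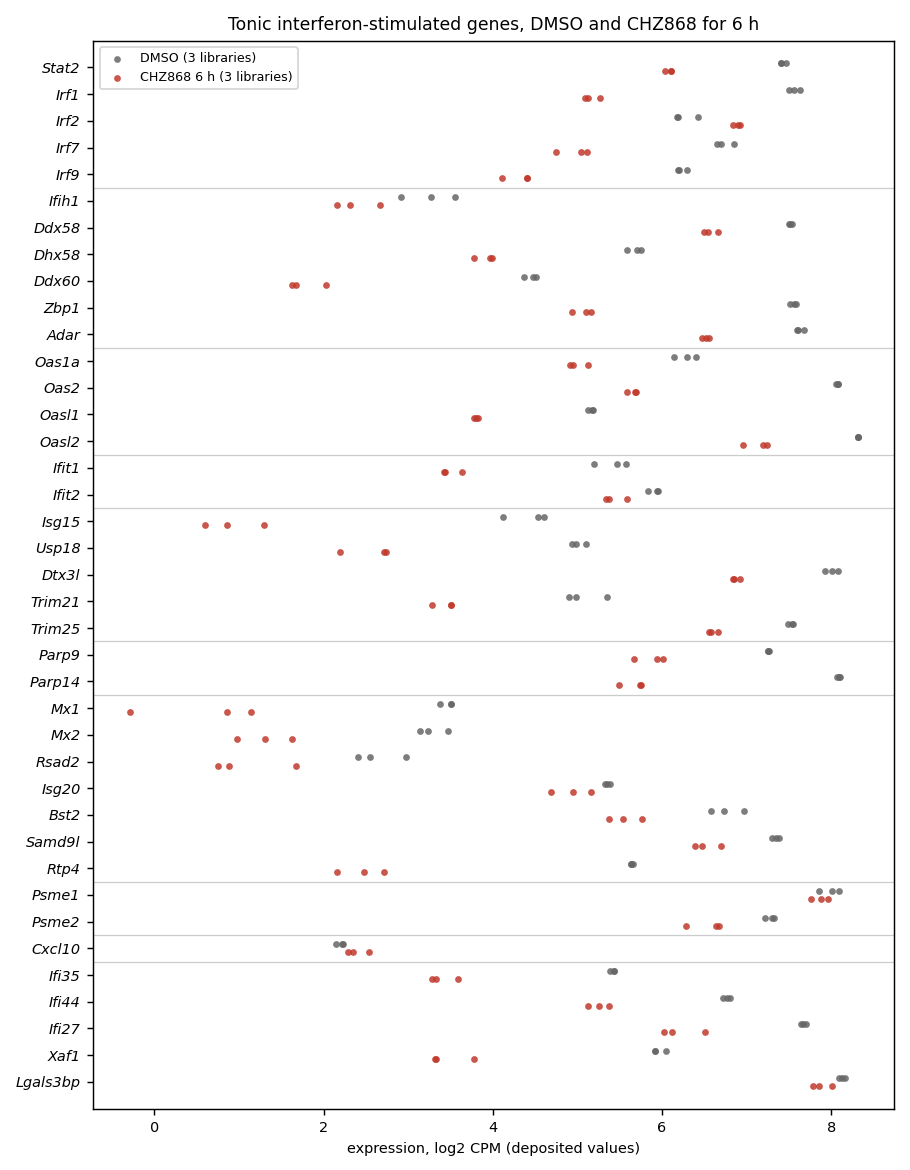
Log2 CPM (horizontal axis) of the 39 listed genes in each of the 3 DMSO_treated and 3 CHZ_treated libraries, with genes grouped by role on the vertical axis and 1 symbol per library. For 36 genes all CHZ868 symbols lie to the left of all DMSO symbols, while Irf2 and Cxcl10 lie to the right and Psme1 overlaps.

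The lists were filtered by the authors for low expression, and a gene that is low in one group can enter through the other. Mx1 was the only one of the 39 with a CHZ_treated library below 1.023 CPM, the lowest value listed for any gene in a DMSO_treated library. Of the other 38 genes, 35 fell, with a median log2 difference of -1.42. Counted per kilobase of the longest annotated transcript, levels in DMSO_treated cells ran from 1.51 CPM per kb for Rsad2 to 208 for Ifi27. Psme2 at 162, Bst2 at 137 and Psme1 at 128 CPM per kb followed Ifi27.

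Of the 5 transcription factors, 4 fell and Irf2 rose. Stat2, a subunit of ISGF3, stood at 7.41, 7.40 and 7.46 log2 CPM in DMSO_treated and 6.03, 6.11 and 6.10 in CHZ_treated libraries. It fell by 1.35 on the log2 scale (2.54-fold, SE 0.067, adjusted p = 4.54e-10). Irf9, the DNA-binding subunit of ISGF3, went from 6.20, 6.19 and 6.30 to 4.40, 4.40 and 4.11 and fell by 1.92 (SE 0.109). The libraries of the 2 groups were far apart for both subunits. Irf1, an activator of antiviral and class I genes, fell most of the 5, from 7.62, 7.50 and 7.56 to 5.27, 5.09 and 5.12, a difference of -2.40 (5.28-fold, SE 0.078, adjusted p = 3.9e-12). Irf7, which drives interferon alpha genes, had 6.85, 6.65 and 6.69 in DMSO_treated and 5.04, 4.74 and 5.11 in CHZ_treated libraries and fell by 1.76 (SE 0.104). Irf2, a related factor best known as an antagonist of IRF1 at shared sites, had 6.42, 6.18 and 6.18 against 6.93, 6.90 and 6.83, so its CHZ_treated libraries all lay above the DMSO_treated ones. It rose by 0.62 (1.54-fold, SE 0.080, adjusted p = 1.19e-05), the only gene of the 39 to do so.

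All 6 genes of nucleic acid sensing, the editor Adar included, fell. Ddx60, shown above with 2 ISRE cores, had the largest change of the group on the deposited scale, from 4.37, 4.47 and 4.51 log2 CPM in DMSO_treated to 1.68, 2.02 and 1.63 in CHZ_treated libraries, a fall of 2.67 (6.38-fold, SE 0.207, adjusted p = 5.44e-08). With 5 CPM added before taking logs Ddx60 fell by 1.70 and Zbp1 by 2.33. Zbp1, a sensor of Z-form nucleic acid, went from 7.58, 7.51 and 7.56 to 5.16, 4.93 and 5.10 and fell by 2.48 (SE 0.080). Neither gene had overlapping groups. The 3 RIG-I-like helicases fell by unequal amounts. Dhx58, which encodes LGP2, went from 5.59, 5.71 and 5.75 to 3.96, 3.78 and 3.99, a difference of -1.77 (SE 0.119). Ddx58, which encodes RIG-I and is listed as Rigi in this table, went from 7.50, 7.52 and 7.53 to 6.66, 6.55 and 6.50, a difference of -0.95 (SE 0.066). Ifih1, which encodes MDA5, was the lowest of the group per kilobase in DMSO_treated cells, with 3.26, 2.92 and 3.55 against 2.32, 2.16 and 2.66. Its groups did not overlap, and it fell by 0.86 (SE 0.248, adjusted p = 0.00853), a call lost without DMSO_treated replicate 3 (adjusted p = 0.0664). With 5 CPM added before taking logs Ifih1 fell by 0.52. Adar, the editor of double-stranded RNA, went from 7.67, 7.61 and 7.60 to 6.52, 6.48 and 6.55, a fall of 1.11 (2.16-fold, SE 0.063, adjusted p = 1.99e-09).

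The 4 measured members of the OAS family, which make or relate to the 2′-5′ oligoadenylates that activate RNase L, all fell. Oasl2 had 8.31, 8.31 and 8.31 log2 CPM in DMSO_treated and 7.24, 6.96 and 7.19 in CHZ_treated libraries, a fall of 1.18 (2.27-fold, SE 0.072, adjusted p = 4.2e-09). Oas2 fell further, from 8.05, 8.07 and 8.08 to 5.70, 5.59 and 5.68, by 2.41 (5.32-fold, SE 0.066, adjusted p = 6.56e-13). The DMSO_treated libraries of both genes agreed to within a few hundredths of a log2 unit, well inside the distance to CHZ_treated. Oas1a, with its overlapping ISRE cores, went from 6.29, 6.40 and 6.14 to 4.91, 5.12 and 4.95 and fell by 1.28 (SE 0.099). Oasl1 went from 5.18, 5.18 and 5.12 to 3.80, 3.82 and 3.77 and fell by 1.36 (SE 0.124). The last 2 falls were close in size, and none of the 4 genes had overlapping groups.

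Of the IFIT family, whose proteins bind viral RNA and hinder its translation, Ifit1 and Ifit2 were listed. Ifit1 went from 5.58, 5.19 and 5.47 log2 CPM to 3.44, 3.42 and 3.63, a fall of 1.92 (3.77-fold, SE 0.143, adjusted p = 3.64e-08). Ifit2, its neighbour on chromosome 19, fell less, from 5.84, 5.95 and 5.93 to 5.37, 5.34 and 5.59, by 0.47 (1.39-fold, SE 0.095, adjusted p = 0.000659). Both genes had groups without overlap.

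The ISG15 system and the ubiquitin ligases fell in all 5 genes, and Isg15 had the largest fall of the list on the deposited scale. Isg15 (chr4:156199424-156200818, minus strand in GENCODE on GRCm38) encodes the ubiquitin-like modifier that is joined to other proteins in interferon-treated cells. It stood at 4.53, 4.61 and 4.12 log2 CPM in DMSO_treated and 0.60, 0.86 and 1.30 in CHZ_treated libraries. These values rested on 200, 247 and 163 reads against 13, 12 and 18 reads. The groups were far apart, and the fall was 11.3-fold (-3.50 on the log2 scale, SE 0.262, adjusted p = 3.69e-08). With 5 CPM added before taking logs it fell by 1.97, less than Rtp4 at -2.41, Zbp1 and Parp14 at -2.33, Oas2 at -2.31, Irf1 at -2.25 and Xaf1 at -2.07. Usp18, which removes ISG15 and restrains the interferon receptor, went from 4.94, 5.10 and 4.98 to 2.74, 2.72 and 2.20, a difference of -2.46 (SE 0.184). Trim21, a ligase and antibody receptor in the cytosol, went from 5.35, 4.90 and 4.98 to 3.50, 3.51 and 3.28, a difference of -1.65 (SE 0.156). The falls of the other 2 ligases were smaller. Dtx3l, the partner of PARP9, went from 8.08, 8.01 and 7.92 to 6.92, 6.84 and 6.85 and fell by 1.14 (2.2-fold, SE 0.064, adjusted p = 1.73e-09). Trim25, which modifies RIG-I, went from 7.48, 7.54 and 7.55 to 6.55, 6.57 and 6.66 and fell by 0.93 (SE 0.064).

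Both PARP genes, which encode ADP-ribosylation proteins, fell without overlap. Parp14 went from 8.10, 8.07 and 8.11 log2 CPM to 5.75, 5.49 and 5.74, a difference of -2.43 (5.4-fold, SE 0.077, adjusted p = 3.16e-12). Parp9 went from 7.25, 7.25 and 7.27 to 6.01, 5.67 and 5.94, a difference of -1.38 (SE 0.086). Dtx3l and Parp9 lie head to head on chromosome 16 on opposite strands and share 458 exon bases in the annotation, so reads from the shared bases may count for either gene.

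The 7 antiviral effectors all fell. Rtp4 (chr16:23520291-23614222, plus strand in GENCODE on GRCm38), a chaperone of membrane receptors that is induced by interferon, had the second largest fall of the list on the deposited scale. It went from 5.63, 5.63 and 5.66 log2 CPM to 2.72, 2.16 and 2.48, a difference of -3.19 (9.12-fold, SE 0.166, adjusted p = 8.16e-10). Mx1, a GTPase that traps viral particles, went from 3.38, 3.50 and 3.50 to -0.29, 0.86 and 1.15, with 89, 114 and 105 reads against 6, 12 and 16. Its CHZ_treated libraries spread over more than a log2 unit, all of them below DMSO_treated, and the difference was -2.89 (SE 0.361, adjusted p = 8.87e-06). Mx2, its paralog, went from 3.14, 3.47 and 3.23 to 1.63, 1.31 and 0.97, a difference of -1.98 (SE 0.278). Rsad2, the least abundant effector per kilobase, went from 2.54, 2.97 and 2.40 to 1.68, 0.75 and 0.88 and fell by 1.54 (SE 0.341, adjusted p = 0.00147). Mx1, Mx2 and Rsad2 had the lowest read counts of the 7 and the largest standard errors. With 5 CPM added before taking logs their falls were 1.31, 1.00 and 0.66 log2 units, and all 3 passed.

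The other 3 effectors fell by less on the deposited scale. Bst2, which encodes the tetherin that holds budding virus at the cell surface, went from 6.57, 6.96 and 6.73 log2 CPM to 5.76, 5.54 and 5.37 and fell by 1.20 (SE 0.110). Samd9l, a translation repressor in antiviral defence, went from 7.38, 7.29 and 7.35 to 6.70, 6.47 and 6.39 and fell by 0.82 (1.77-fold, SE 0.080, adjusted p = 6.54e-07). Isg20, an exonuclease that degrades RNA, went from 5.39, 5.32 and 5.35 to 4.94, 4.68 and 5.16 and fell by only 0.42 (1.34-fold, SE 0.123, adjusted p = 0.00944). All 3 had groups without overlap. With 5 CPM added before taking logs, Bst2 fell by 1.12, Samd9l by 0.79 and Isg20 by 0.37, so that Bst2 fell by more than Mx2 and Rsad2, and Samd9l by more than Rsad2.

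The proteasome activator genes lie close together on chromosome 14, and the difference between their changes was not tested. Psme2, which encodes the beta subunit of PA28, fell from 7.22, 7.32 and 7.30 log2 CPM to 6.64, 6.68 and 6.28, by 0.75 (1.68-fold, SE 0.092, adjusted p = 7.76e-06). Psme1, which encodes the alpha subunit, had 8.09, 8.01 and 7.85 in DMSO_treated and 7.76, 7.96 and 7.88 in CHZ_treated libraries. These groups overlapped and the difference of -0.12 did not pass (SE 0.071, adjusted p = 0.182). Cxcl10, the chemokine of this list, had 2.23, 2.14 and 2.22 against 2.29, 2.53 and 2.35 log2 CPM from 39, 43 and 42 against 47, 42 and 39 reads. Its CHZ_treated libraries lay slightly above, and the difference of 0.19 did not pass (SE 0.259, adjusted p = 0.554).

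The other 5 interferon-stimulated genes all fell. Xaf1, a partner of the apoptosis inhibitor XIAP, went from 6.04, 5.92 and 5.92 log2 CPM to 3.33, 3.78 and 3.31, a difference of -2.49 (5.6-fold, SE 0.141, adjusted p = 1.95e-09). Ifi35 went from 5.39, 5.43 and 5.43 to 3.28, 3.33 and 3.59 and Ifi44 from 6.80, 6.72 and 6.76 to 5.25, 5.38 and 5.12. Their differences were -2.01 (SE 0.136) and -1.51 (SE 0.086). Ifi27, the most abundant gene of the list per kilobase, went from 7.70, 7.67 and 7.64 to 6.51, 6.02 and 6.12, a difference of -1.45 (SE 0.10). Lgals3bp, a secreted galectin ligand, went from 8.12, 8.16 and 8.09 to 7.78, 7.86 and 8.01. The Lgals3bp groups were close but did not overlap, and the fall was 1.18-fold (-0.24 on the log2 scale, SE 0.065, adjusted p = 0.00572). This call was lost without the mean-variance trend of the fit (adjusted p = 0.0528).

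The size of the fall was set beside the promoter letters for the genes measured. The 13 genes with an ISRE core had a median log2 difference of -1.29 and 10 of them fell. The 26 genes without a match or without a window had a median of -1.64 and 26 fell. That second set mixes genes searched without a match, from -0.24 for Lgals3bp to -2.49 for Xaf1, with genes never searched. The genes never searched, which had no window, ran from -1.38 for Parp9 to -3.19 for Rtp4. So these medians do not compare genes with a core to genes without one. Irf2, Psme1 and Cxcl10, the genes that did not fall, were all among those with an ISRE core in the window.

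**Figure D2:**
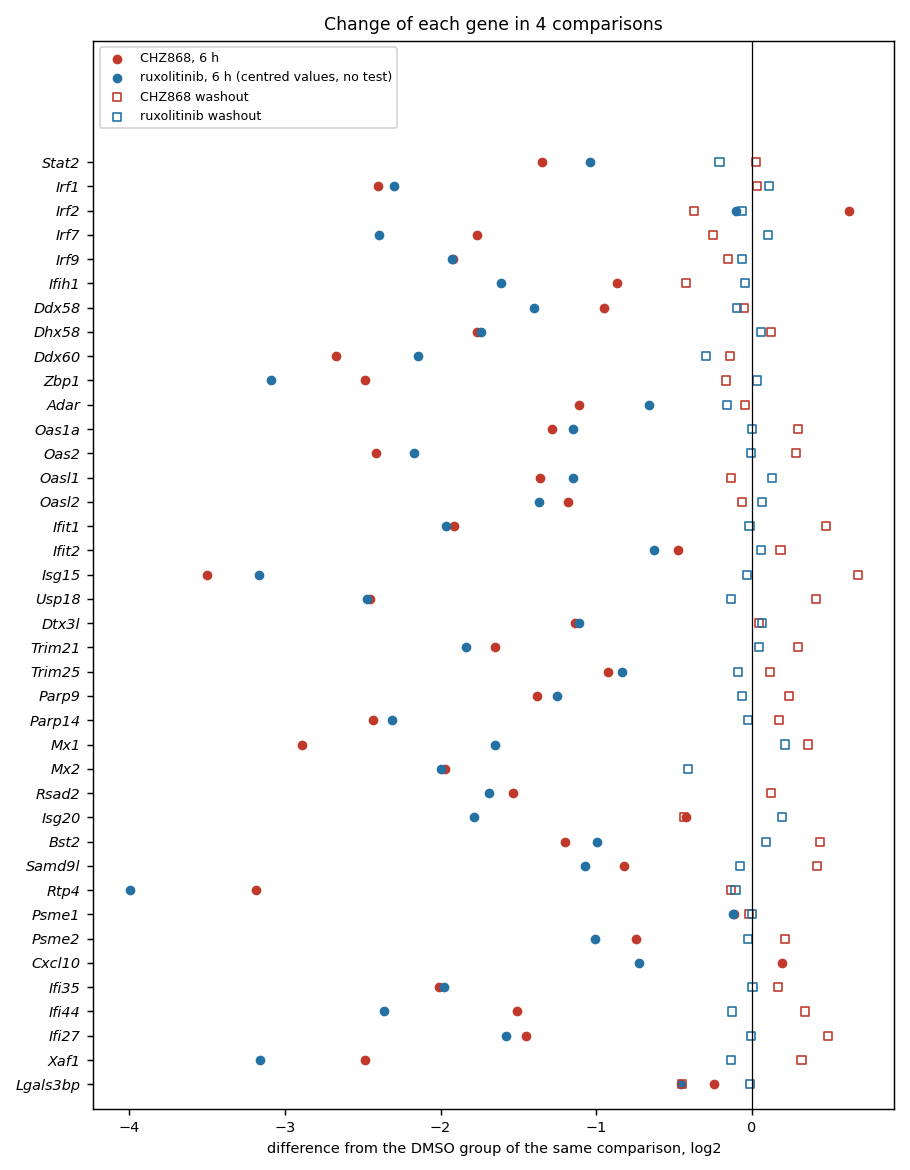
Log2 differences (horizontal axis) of each gene, ordered by role, for CHZ868 for 6 h, CHZ868 washout and ruxolitinib washout against their own DMSO groups (red circles, red squares and blue squares), and for ruxolitinib for 6 h against DMSO_treated on centred values (blue circles). The medians are -1.45 and -1.65 for CHZ868 and ruxolitinib at 6 h, and 0.12 and -0.015 for their washouts.

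Genes of the pathway above these targets were taken from a list of 24 receptors, kinases, sensors' adaptors and SOCS genes, of which 18 were listed. In the CHZ868 6 h comparison 6 fell, 9 rose and 3 did not pass, where 26.4% of all genes fell and 26.8% rose, with a median log2 difference of 0.14. Socs1, a feedback inhibitor of JAK1 and TYK2, went from 4.41, 4.62 and 4.59 log2 CPM to -0.48, 0.03 and -1.53. The difference on the deposited scale was -5.20 (SE 0.373, adjusted p = 2.36e-08). It rested on 184, 249 and 226 reads in DMSO_treated against 5, 6 and 1 in CHZ_treated libraries, so its size is imprecise. The Socs1 groups were far apart. Socs3, the feedback inhibitor tied to STAT3, fell by 1.47 (SE 0.267).

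All 5 listed receptor genes and the receptor kinase genes Jak1, Tyk2 and Jak2 passed, with log2 differences between -0.33 and 0.48. Among receptor genes, Ifnar2 fell by 0.33 (SE 0.097) while Ifnar1 rose by 0.40 (SE 0.086). Ifngr1, Ifngr2 and Il10rb rose by 0.48, 0.38 and 0.41. Of the kinases, Jak2, here taken from the genes of cytokine dependence, rose by 0.19 (SE 0.061, adjusted p = 0.0154). The cells carry human JAK2-V617F from a retroviral vector, and whether its reads were counted under Jak2 was not tested. Tyk2 fell by 0.30 and Jak1 rose by 0.28 on the log2 scale. Of the genes that link nucleic acid sensors to interferon transcription, Irf3 fell by 0.92 and Ikbke by 0.45, while Ticam1 rose by 0.92, Irf5 by 0.55, Mavs by 0.39 and Tbk1 by 0.29. Tmem173, Mb21d1 and Myd88 did not pass. None of 21 interferon genes was listed in any of the tables.

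**Figure D3:**
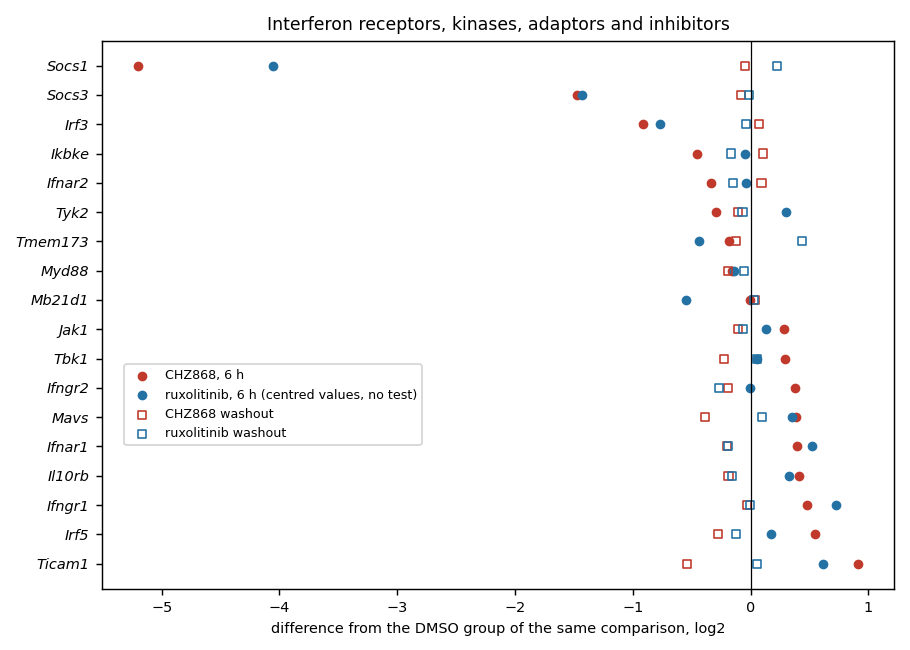
Log2 differences (horizontal axis) of the 18 listed pathway genes above the interferon-stimulated genes, for CHZ868 and ruxolitinib at 6 h (filled circles) and after washout (open squares). Socs1 lies near -5.2 after CHZ868 for 6 h, where the receptors and the receptor kinases Jak1 and Tyk2 lie between -0.33 and 0.48.

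A second list of 73 further interferon-stimulated genes had 52 in the CHZ868 6 h table, of which 41 fell and 3 rose, where 26.4% and 26.8% of all genes did, with a median of -0.73. The largest falls on the deposited scale were those of Slfn2, which keeps T cells quiescent, at -3.46 (SE 0.443), and of the apolipoprotein L genes Apol9a at -3.24 (SE 0.174) and Apol9b at -3.02 (SE 0.202). The rises were those of the membrane antiviral genes Ifitm2, by 2.25 (SE 0.362), and Ifitm1, by 0.26 (SE 0.105), and of the surface antigen Ly6e, by 0.84 (SE 0.057). Of 8 genes known as STAT5 targets downstream of JAK2, 8 fell in the same comparison, with the same share of all genes, from -3.20 for the kinase gene Pim1 to -0.27 for Myc. Among the markers of other cell types, Fcgr1 and Csf1r, which mark macrophages, fell by 2.04 (SE 0.288, adjusted p = 3e-05) and 1.18 (SE 0.317, adjusted p = 0.00578), while Cd68 differed by 0.47 (SE 0.195, adjusted p = 0.054). Fcgr1 is also a known target of interferon gamma. The part of such cells in the results was not tested. The macrophage genes Adgre1, Lyz2, Cd14 and Mertk were not in that table, but Adgre1 and Lyz2 were in the ruxolitinib washout table. There Adgre1 lay wholly below DMSO_wash, at -1.10 (SE 0.371, adjusted p = 0.639 in limma's test). Lyz2, at 0.11, overlapped, as did Cd68, Csf1r and Fcgr1.

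Ruxolitinib for 6 h gave lower values for most of the same list. The Ruxo_treated libraries are in a table of their own, so the median over the 11624 genes listed in both this and the DMSO_treated table was subtracted from each library, and no test was run. The DMSO_treated libraries are the same ones as for CHZ868, so the 6 h comparisons share their control and are given side by side. Of 39 genes, 31 were lower by at least 1 log2 unit without overlap of the libraries, as were 2.83% of all shared genes, and 0 were higher by that much, as were 0.292% of all genes. Without the size limit, 36 of the 39 lay wholly below DMSO_treated, where 20.1% of all genes did, 0 lay wholly above, where 24.6% did, and 3 overlapped. The median difference was -1.65, beside 0.035 over all shared genes. Without Ruxo_treated replicate 2, the library with the higher mitochondrial share, 31 genes were lower by that rule and the median was -1.79. The share of all genes without that library is not given here.

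**Figure D4:**
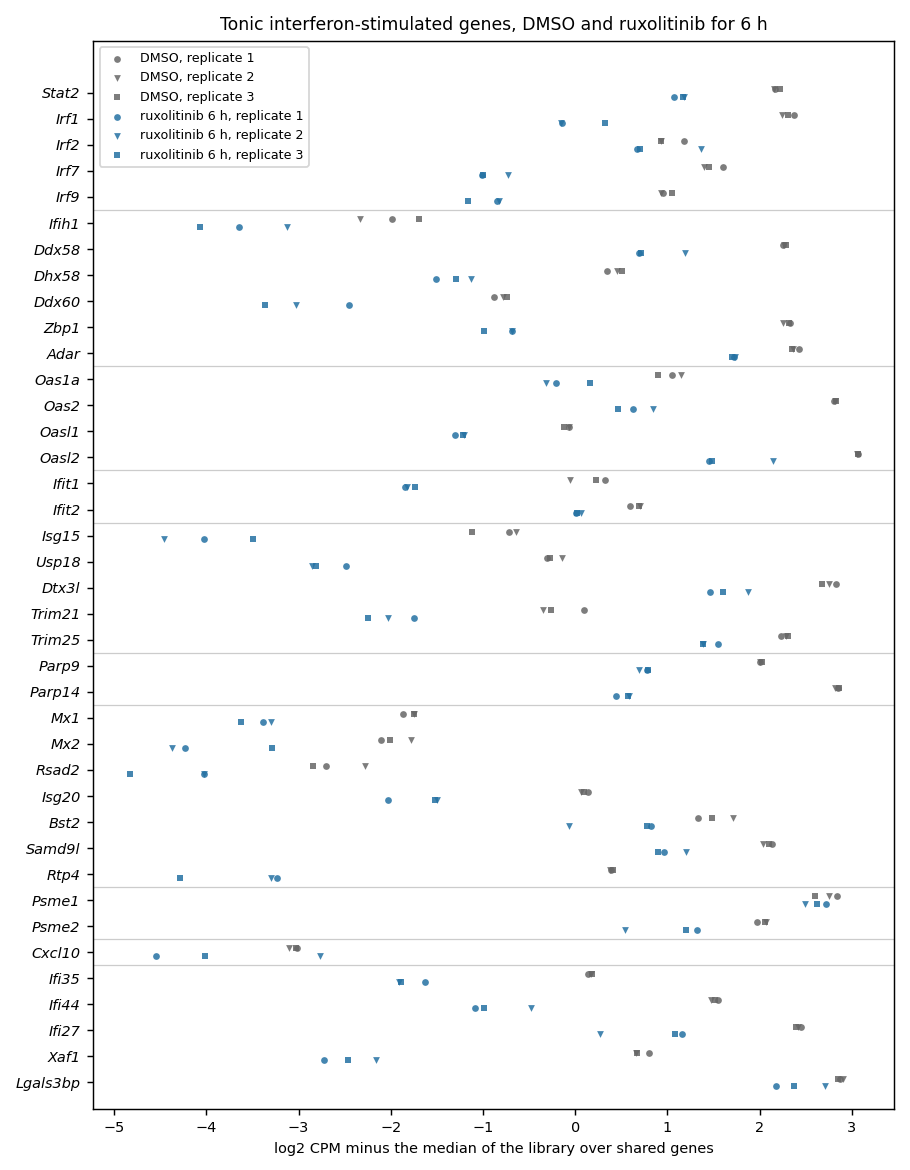
Log2 CPM minus the median of the library over the shared genes (horizontal axis) for the 39 listed genes in 3 DMSO_treated and 3 Ruxo_treated libraries, with genes grouped by role and 1 symbol per library. Irf2, Psme1 and Cxcl10 overlap, and in the other 36 genes all ruxolitinib symbols lie to the left.

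In these centred values, as log2 units from the median of the library, Stat2 had 2.16, 2.15 and 2.22 in DMSO_treated and 1.07, 1.18 and 1.17 in Ruxo_treated libraries, a difference of -1.04. Irf1 had 2.38, 2.25 and 2.31 against -0.14, -0.15 and 0.32, a difference of -2.30, with the DMSO_treated values given first here and in the next sentences. Both lay wholly lower. Irf2 had 1.18, 0.93 and 0.94 against 0.68, 1.36 and 0.70. For this gene the groups overlapped, since Ruxo_treated replicate 2 lay above every DMSO_treated library while the other 2 lay below, and the difference was -0.10. It was -0.33 without that library and 0.017 without Ruxo_treated replicate 1, so its sign turned on single libraries. With CHZ868 the same gene rose by 0.62.

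Among the sensors, Adar had 2.43, 2.36 and 2.35 against 1.73, 1.73 and 1.70, a difference of -0.66 on the centred scale. Ddx60 had -0.88, -0.78 and -0.74 against -2.45, -3.03 and -3.36, a difference of -2.15. The sensor with the largest difference was Zbp1, at -3.09 (8.5-fold), beside -2.48 with CHZ868. In the OAS family, Oasl2 had 3.07, 3.06 and 3.07 against 1.46, 2.15 and 1.48, a difference of -1.37. Oas2 had 2.80, 2.82 and 2.83 against 0.62, 0.84 and 0.47, a difference of -2.17. None of these 5 genes overlapped. In the IFIT family, Ifit1 had 0.33, -0.06 and 0.22 against -1.84, -1.83 and -1.74, a difference of -1.97. Ifit2 had 0.59, 0.70 and 0.69 against 0.01, 0.06 and 0.02, a difference of -0.63, and both lay wholly lower.

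Isg15 again had one of the largest differences on the deposited scale, at -3.17 (8.97-fold). It had -0.72, -0.65 and -1.12 in DMSO_treated and -4.03, -4.46 and -3.49 in Ruxo_treated libraries. Dtx3l had 2.83, 2.75 and 2.68 against 1.46, 1.88 and 1.60, a difference of -1.11. Parp14 had 2.85, 2.82 and 2.86 against 0.44, 0.58 and 0.57, a difference of -2.31. On the deposited scale the largest difference of the 39 was that of the effector Rtp4. It had 0.39, 0.38 and 0.41 against -3.23, -3.30 and -4.29, a difference of -4.0 (16-fold). With 5 CPM added it was -2.78, beside -2.84 for Zbp1 and -1.87 for Isg15. Samd9l had 2.13, 2.04 and 2.10 against 0.96, 1.20 and 0.90, a difference of -1.07. Isg20 had 0.14, 0.07 and 0.10 against -2.03, -1.50 and -1.52, a difference of -1.79, beside -0.42 with CHZ868. The groups of these 6 genes did not overlap.

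Of the proteasome activator subunits, Psme1 had 2.84, 2.75 and 2.61 against 2.72, 2.50 and 2.62 with overlapping groups. Psme2 had 1.97, 2.07 and 2.06 against 1.32, 0.54 and 1.20 without overlap. Their differences were -0.12 and -1.01. Cxcl10 had -3.02, -3.11 and -3.03 against -4.55, -2.77 and -4.01, and its Ruxo_treated libraries spread over almost 2 log2 units on both sides of DMSO_treated. Xaf1 had 0.80, 0.66 and 0.67 against -2.72, -2.16 and -2.47, a difference of -3.16. Lgals3bp had 2.88, 2.91 and 2.85 against 2.18, 2.71 and 2.38, a difference of -0.46. Xaf1 and Lgals3bp had groups without overlap.

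Of the pathway genes above them, 2 were lower by at least 1 log2 unit without overlap after ruxolitinib, as were 2.83% of all genes, and 0 were higher, as were 0.292%. These were Socs1 at -4.06 and Socs3 at -1.44, the same 2 that had the largest falls in this list with CHZ868. Without the size limit, 5 of the 18 lay wholly below DMSO_treated, where 20.1% of all genes did, and 6 wholly above, where 24.6% did. Besides both SOCS genes, those below were Irf3 at -0.77, Mb21d1 at -0.55 and Tmem173 at -0.44. Those above were Ifngr1 by 0.73, Ticam1 by 0.62, Ifnar1 by 0.52, Il10rb by 0.33, Tyk2 by 0.30 and Jak1 by 0.13, while Ifnar2 and Ifngr2 overlapped. Of the further interferon-stimulated genes, 20 were lower by at least 1 log2 unit without overlap and 0 were higher, and of the 8 STAT5 targets 5 were lower by this rule, beside the same 2.83% and 0.292% of all genes. Of the macrophage markers, Fcgr1 lay wholly below DMSO_treated, by -1.67 (3.17-fold), while Csf1r at -0.31 and Cd68 at 0.04 overlapped. The part of such cells in the results was not tested.

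After ruxolitinib washout, none of the 37 genes listed in that table passed in limma's test, in either direction. At an unadjusted p under 0.05 there were 2 of 37 genes. Of all 13085 genes of the table, 3 passed, which is 0.0229% lower and 0% higher, and 920 (7.03%) had an unadjusted p under 0.05. The median log2 difference of the 37 genes was -0.015 and that of all genes 0.000. Ddx60 and Stat2 lay wholly below DMSO_wash, as 6.59% of all genes did, and Dtx3l, Bst2 and Isg20 lay wholly above, as 6.3% did. Rsad2 and Cxcl10 were not in this table, in which RIG-I is listed under its older symbol Ddx58.

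Isg15 had 5.39, 5.44 and 5.70 log2 CPM in DMSO_wash and 5.47, 5.46 and 5.50 in Ruxo_wash libraries. The groups overlapped and the difference was -0.03 (SE 0.088, adjusted p = 0.971). Isg20 had 6.36, 6.24 and 6.34 against 6.45, 6.66 and 6.40, with Ruxo_wash slightly above throughout and a difference of 0.19 (SE 0.076, adjusted p = 0.696). Lgals3bp had 7.14, 7.10 and 7.15 against 7.03, 7.14 and 7.17, a difference of -0.01 (SE 0.046). Irf1 had 6.49, 6.59 and 6.46 against 6.63, 6.69 and 6.55, a difference of 0.11 (SE 0.056). The last 2 genes had overlapping groups. Rtp4 had 6.02, 6.05 and 6.22 against 6.04, 5.95 and 5.99. Stat2 had 5.55, 5.36 and 5.32 against 5.19, 5.31 and 5.10. Their differences were -0.10 (SE 0.065) and -0.21 (SE 0.088). The other 31 genes listed there differed by between -0.41 and 0.21 log2 units, and the lower end is that of Mx2.

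The remaining leading genes of each role are given with their controls first. Adar had 5.68, 5.89 and 5.95 in DMSO_wash against 5.88, 5.62 and 5.54 in Ruxo_wash libraries. Ddx60 had 1.87, 2.04 and 1.87 against 1.43, 1.59 and 1.86. Adar overlapped, and Ddx60 lay wholly lower by a small margin, at -0.29 (SE 0.215). Oasl2 had 5.56, 5.83 and 5.52 against 5.73, 5.77 and 5.61. Oas2 had 4.84, 4.93 and 5.04 against 5.04, 4.92 and 4.84. The OAS genes overlapped. Ifit1 had 2.99, 2.79 and 2.61 against 2.75, 2.92 and 2.68. Ifit2 had 3.43, 3.40 and 3.72 against 3.55, 3.48 and 3.69. The IFIT genes overlapped as well. Dtx3l had 4.84, 4.84 and 4.84 against 4.95, 4.91 and 4.85. Parp14 had 4.35, 4.35 and 4.36 against 4.35, 4.36 and 4.27. Dtx3l lay wholly above its controls, by 0.06 (SE 0.057), and Parp14 overlapped. Samd9l had 4.55, 4.69 and 4.71 against 4.58, 4.53 and 4.62. Xaf1 had 5.08, 5.64 and 5.75 against 5.27, 5.32 and 5.48. The groups of both were interleaved. Psme1 had 8.46, 8.43 and 8.40 against 8.47, 8.44 and 8.38. Psme2 had 8.01, 7.98 and 7.79 against 7.86, 7.99 and 7.85. Both proteasome activator subunits overlapped.

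After CHZ868 washout, 1 of the 37 listed genes was lower and 1 was higher at an adjusted p under 0.05. Of all genes of the table, 2.07% passed as lower and 1.96% as higher. The median log2 difference was 0.12, beside 0.005 for all genes, and 14 of the 37 genes had an unadjusted p under 0.05, as did 2767 of all 11355 genes (24.4%). The CHZ_wash libraries lay wholly below DMSO_wash_exp3 for 7 genes, where 16.1% of all genes did, and wholly above for 11, where 14.9% did. Mx2 and Cxcl10 were not in this table. The calls turned on single libraries. Without DMSO_wash_exp3 replicate 1, or without any 1 of the CHZ_wash libraries, 0 genes passed in either direction, and without DMSO_wash_exp3 replicate 2 there were 4 higher and 2 lower. Of all genes of the table, at most 1 passed in either direction in the first 4 of these fits, and 594 were higher and 704 lower in the last.

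Isg15, which had one of the largest falls at 6 h on the deposited scale, was the gene that rose. It had 4.01, 3.88 and 3.84 log2 CPM in DMSO_wash_exp3 and 4.45, 4.67 and 4.65 in CHZ_wash libraries, from 156, 137 and 117 against 180, 233 and 225 reads. All CHZ_wash libraries lay above, and the rise was 0.68 on the log2 scale (1.6-fold, SE 0.135, adjusted p = 0.0331). Lgals3bp had 8.08, 8.06 and 8.46 against 7.76, 7.73 and 7.75, with the highest value in DMSO_wash_exp3 replicate 3. It fell by 0.45 (1.36-fold, SE 0.108, adjusted p = 0.0469). Isg20 had 6.10, 5.92 and 6.27 against 5.63, 5.74 and 5.62, wholly lower after washout, with a difference of -0.43 that did not pass (SE 0.110, adjusted p = 0.0538). Irf2 had 6.25, 6.16 and 6.95 against 6.15, 5.98 and 6.12, wholly lower too, with a difference of -0.37 (SE 0.176, adjusted p = 0.22) that did not pass.

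Without DMSO_wash_exp3 replicate 3, the library with the higher mitochondrial share, Isg15 was higher by 0.65 (adjusted p = 0.00904) and Lgals3bp differed by -0.32 (adjusted p = 0.00639). The Irf2 difference shrank to -0.13 and did not pass. Isg20 then passed as well, at -0.35 (adjusted p = 0.0283). In that fit 7 of the 37 genes rose and 2 fell, among 759 and 667 genes of the whole table.

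**Figure D5:**
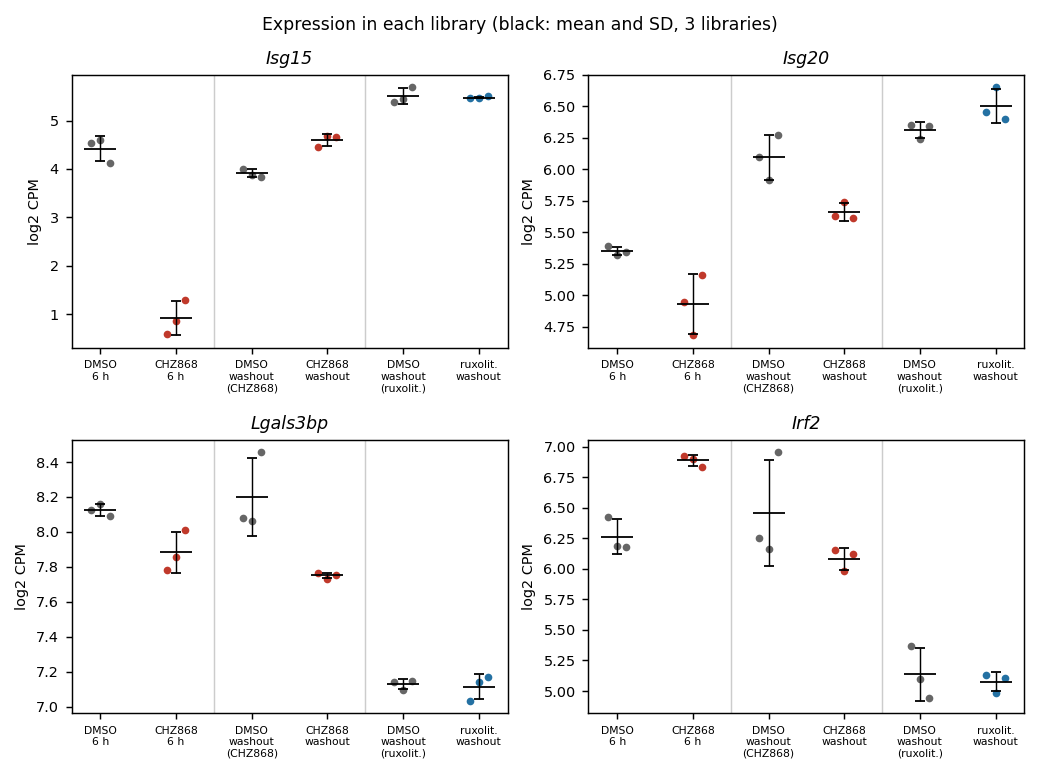
Log2 CPM (vertical axis) of Isg15, Isg20, Lgals3bp and Irf2 in each library of 6 groups, with points for libraries and black lines for the group mean and SD of 3 libraries. CHZ_wash lies above DMSO_wash_exp3 for Isg15 and below it for the other 3 genes, and levels in different tables are not on a common scale.

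The CHZ868 effects at 6 h and after washout come from separate tables with separate DMSO groups, so their difference could be tested for the 37 genes in both. The 6 h effect was lower than the washout effect in 32 genes and higher in 1, where 23.8% and 23.2% of all genes passed in these directions. The median difference of effects was -1.63, beside -0.025 over all genes. For Isg15 it was -4.18 on the log2 scale (SE 0.277, adjusted p = 9.25e-09), and -2.52 with 5 CPM added before taking logs. Irf2 was the gene with the higher 6 h effect, by 1.00 (SE 0.209, adjusted p = 0.00096). Ifih1, Psme1, Isg20 and Lgals3bp did not pass, with differences of effects of -0.44 (SE 0.355), -0.10 (SE 0.139), 0.01 (SE 0.169) and 0.20 (SE 0.132). The 6 h libraries of these genes are given above, and those of the washout table follow by role.

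Among transcription factors, Stat2 had 6.61, 6.53 and 6.55 log2 CPM in DMSO_wash_exp3 and 6.51, 6.69 and 6.57 in CHZ_wash libraries, which overlapped, and its effects differed by -1.37 (SE 0.104). Irf1 had 7.25, 7.28 and 7.19 against 7.24, 7.30 and 7.28, also overlapping, and its effects differed by -2.43 (SE 0.105). Irf7 had 5.78, 5.70 and 5.67 against 5.42, 5.47 and 5.51. Irf9 had 6.06, 5.99 and 6.05 against 5.83, 5.87 and 5.95. Both of the latter lay slightly lower after washout without overlap, at -0.25 (SE 0.096, adjusted p = 0.147) and -0.15 (SE 0.091, adjusted p = 0.326), and neither passed. Their effects differed by -1.52 (SE 0.145) and -1.77 (SE 0.137).

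Among sensors, RIG-I had 6.57, 6.52 and 6.81 in DMSO_wash_exp3 and 6.72, 6.51 and 6.50 in CHZ_wash libraries. LGP2 (Dhx58) had 5.35, 5.07 and 5.11 against 5.33, 5.21 and 5.34, with controls first here and below. Both overlapped. Zbp1 had 6.80, 6.77 and 6.67 against 6.47, 6.63 and 6.64. Adar had 7.52, 7.47 and 7.32 against 7.44, 7.41 and 7.32. Adar overlapped, and Zbp1 lay wholly lower after washout, at -0.17 (SE 0.089, adjusted p = 0.277). Ddx60 had 3.50, 1.67 and 2.34 against 2.46, 2.19 and 2.44, and its controls spread over almost 2 log2 units around the CHZ_wash values. For these 5 genes the difference of effects ran from -2.54 (SE 0.458) for Ddx60 to -0.90 (SE 0.125) for RIG-I. Ifih1 had 2.20, 2.09 and 1.94 against 1.32, 1.75 and 1.87, wholly lower after washout, at -0.43 (SE 0.262, adjusted p = 0.343), which did not pass.

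In the OAS family, Oas1a had 5.73, 5.79 and 5.45 against 5.84, 5.93 and 6.10. Oas2 had 6.30, 6.22 and 6.43 against 6.79, 6.58 and 6.44. In both the CHZ_wash libraries lay wholly above, by 0.30 (SE 0.119, adjusted p = 0.158) and 0.28 (SE 0.108, adjusted p = 0.142), and neither passed. Oasl1 had 4.85, 4.69 and 4.56 against 4.66, 4.71 and 4.32. Oasl2 had 7.13, 6.94 and 7.68 against 7.15, 7.11 and 7.29, with overlap in both. In Oasl2 the highest value was again that of DMSO_wash_exp3 replicate 3. The effects of the 4 genes differed by between -2.7 for Oas2 and -1.12 for Oasl2. In the IFIT family, Ifit1 had 4.11, 3.89 and 4.38 against 4.43, 4.61 and 4.78, wholly higher by 0.48 (SE 0.160, adjusted p = 0.105) without passing. Ifit2 had 4.65, 4.47 and 4.51 against 4.73, 4.64 and 4.82, which overlapped. Their effects differed by -2.39 (SE 0.217) and -0.66 (SE 0.149).

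In the ISG15 system, Usp18 had 5.06, 5.27 and 4.69 against 5.54, 5.35 and 5.36. Trim21 had 4.23, 4.47 and 4.50 against 4.74, 4.73 and 4.63. Trim25 had 7.25, 7.20 and 7.22 against 7.36, 7.32 and 7.32. All 3 lay wholly above their controls after washout, by 0.41 (SE 0.148, adjusted p = 0.123), 0.30 (SE 0.128, adjusted p = 0.183) and 0.11 (SE 0.077, adjusted p = 0.383), and none passed. Dtx3l had 7.50, 7.38 and 7.64 against 7.48, 7.62 and 7.57 with overlap. Parp9 had 6.95, 6.95 and 6.84 against 7.06, 7.19 and 7.21. Parp14 had 7.13, 6.97 and 7.13 against 7.26, 7.21 and 7.27. Both PARP genes were wholly higher, by 0.24 (SE 0.085, adjusted p = 0.122) and 0.17 (SE 0.083, adjusted p = 0.233), without passing. The effects of these 6 genes differed by between -2.87 for Usp18 and -1.04 for Trim25.

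Among effectors, Mx1 had 2.51, 1.85 and 2.7 against 3.03, 2.41 and 2.71. Rsad2 had 1.11, 1.35 and 2.53 against 2.02, 1.93 and 1.41, both low and overlapping. Bst2 had 6.55, 6.86 and 5.89 against 6.81, 6.89 and 6.92. Samd9l had 6.34, 6.28 and 6.80 against 6.79, 6.93 and 6.96. In Bst2 the lowest and in Samd9l the highest control was DMSO_wash_exp3 replicate 3. Rtp4 had 5.59, 5.53 and 6.06 against 5.43, 5.55 and 5.80, with overlap, and its effects differed by -3.06 (SE 0.223). The effects of the other 4 differed by -3.25 for Mx1, -1.66 (SE 0.529, adjusted p = 0.016) for Rsad2, -1.63 for Bst2 and -1.24 for Samd9l.

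Psme2 had 7.36, 7.77 and 7.03 against 7.41, 7.70 and 7.68 with overlap, and its effects differed by -0.96 (SE 0.203, adjusted p = 0.00106). Psme1 had 8.36, 8.38 and 8.09 against 8.07, 8.39 and 8.30, also with overlap. Ifi35 had 5.41, 5.42 and 4.73 against 5.46, 5.35 and 5.25. Xaf1 had 4.85, 4.77 and 5.54 against 5.42, 5.34 and 5.35. Both overlapped. Ifi44 had 5.78, 5.57 and 5.99 against 6.22, 6.02 and 6.12. Ifi27 had 6.56, 6.90 and 6.21 against 6.97, 7.16 and 7.0. These last 2 lay wholly higher after washout, by 0.34 (SE 0.120, adjusted p = 0.117) and 0.49 (SE 0.148, adjusted p = 0.0816), without passing. The effects of the 4 genes differed by -2.80 for Xaf1, -2.18 for Ifi35, -1.94 for Ifi27 and -1.85 for Ifi44.

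None of the 18 pathway genes passed in limma's test after ruxolitinib washout, and 0 had an unadjusted p under 0.05. After CHZ868 washout Ticam1 fell by 0.54 (SE 0.131, adjusted p = 0.0473), and the other 17 did not pass. Of the further interferon-stimulated genes, 0 of 53 passed in limma's test after ruxolitinib washout, where 6 had an unadjusted p under 0.05, as did 7.03% of all genes. After CHZ868 washout Trim30a rose by 0.46 (SE 0.101, adjusted p = 0.041) and Shisa5 fell by 0.55 (SE 0.111, adjusted p = 0.0354), among 51, where 1.96% of all genes rose and 2.07% fell. Of the 8 STAT5 targets 0 passed in limma's test in either washout, with 4 at an unadjusted p under 0.05 after ruxolitinib washout and 1 after CHZ868 washout, where 7.03% and 24.4% of all genes had one. After ruxolitinib washout Pim2 differed by 0.35 (SE 0.053, adjusted p = 0.218) and Id1 by 0.14 (SE 0.021, adjusted p = 0.197). Both genes, Pim1 and Cish lay wholly above DMSO_wash, as 6.3% of all genes did. Bcl2 lay wholly below, as 6.59% did, and 3 overlapped. The study reported Pim2 and Id1 as significantly increased after ruxolitinib washout.

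The ruxolitinib and CHZ868 washout effects, each against its own DMSO group at the same dose and times, were compared for the 35 genes that both tables list under 1 symbol. The ruxolitinib effect was lower in 1 gene and higher in 1 at an adjusted p under 0.05, where 0.923% and 0.972% of all genes passed in these directions. The median difference of effects was -0.16, beside -0.010 for all genes, and 10 of the 35 had an unadjusted p under 0.05, as did 1903 of all 10078 genes (18.9%). Isg15 had the lower ruxolitinib effect, by -0.71 (SE 0.146, adjusted p = 0.0371), and Isg20 the higher one, by 0.63 (SE 0.135, adjusted p = 0.0379). These calls turned on single libraries too. Without DMSO_wash_exp3 replicate 2 there were 3 genes lower and 2 higher, without replicate 3 of that group 2 and 2, and without CHZ_wash replicate 1 there were 1 and 0. Over all 10078 genes these fits had 297 lower and 331 higher, 268 and 262, and 49 and 43. Without any other 1 library of the 4 groups, 0 of the 35 listed genes passed in limma's test. Over all genes these fits had between 1 and 22 lower and between 4 and 15 higher. For the other 33 genes the 95% intervals of the difference lay between -1.24 (Ddx60) and 1.15 (Ifih1), and 30 of them lay within 1 log2 unit of 0. A p that missed the threshold does not show that the inhibitors act alike after removal. The values of the ruxolitinib washout table do not correspond to whole reads, unlike those of the CHZ868 table, and the part of this in the difference was not tested.

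Some of these genes share sequence with close copies, and reads may have been split between them. Transcripts of Mx1 and Mx2 matched over 920 bases at 94.8% identity, those of Oas1a and Oas1g over 1861 bases at 97.6%, and those of Psme2 and Psme2b over 794 bases at 99.4%. Isg15 matched a processed pseudogene over 482 bases at 95.2%. Adar and Chrnb2 share 1365 exon bases on opposite strands. The kit is labelled as strand-specific, but whether the counting used the strand is not given in the sources used here, so reads of such pairs cannot be told apart with certainty.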

How the data were processed

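Per the labels and the methods of the study, RNA was extracted with Trizol and mRNA libraries were made with a strand-specific kit. The deposited values are log2 CPM per gene, which the authors computed after filtering genes of low expression and normalizing by TMM. The study's methods name kallisto, GRCm38 and edgeR, whereas the submitters' processing notes list STAR 2.7.3a, edgeR 4.0.16 and GRCm39, so the route of each table is uncertain. Removing the constant the authors added gave whole reads in 3 tables (100% of the low values within 0.1 reads), which gave the depth. The ruxolitinib washout values gave none.

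Groups were compared within tables with limma 3.58.1 in R 4.3.3 (limma-trend, empirical Bayes, Benjamini-Hochberg over all genes of the table). Differences of effects were fitted in the same way over the genes of both tables. Ruxolitinib at 6 h was compared after median centring, without a test. Fold changes are on the scale of the deposited log2 CPM with its constant, which understates changes of low genes. Near copies were transcripts matching by blastn 2.17.0 at 90% identity or more over 300 bases or more. Values in every library were given for the highest and the most changed gene of each role, for genes past the threshold in a washout or a difference of effects, and for others by role. Members and lists were chosen with earlier results of these data known. Alternatives were pseudocounts of 1 and 5 CPM, a mean filter of 1 log2 CPM, median centring, quantile normalization, no trend, robust empirical Bayes, a voom fit on recovered reads, a replicate block and leaving out each library. Some genes of the pathway and marker lists are not reported here.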

Additional observations from a re-analysis of the deposited data

Results flagged for a closer look

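In limma's test of the difference, 32 listed genes had a lower CHZ868 effect at 6 h than after washout. So did 23.8% of all genes, and 23.2% had a higher one. For Irf2 the effect was higher at 6 h, by 1.00 on the log2 scale (adjusted p = 0.00096). The ruxolitinib and CHZ868 washout effects differed for Isg15, by -0.71 (adjusted p = 0.0371), and for Isg20, by 0.63 (adjusted p = 0.0379). Over all genes, 0.923% passed as lower and 0.972% as higher in this test. The Isg15 call was lost in 9 and the Isg20 call in 10 of the 12 fits that left out 1 library, and both were lost without the mean-variance trend and with the replicate block.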

How the results depend on the processing

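With a pseudocount of 1 CPM the median log2 difference of the listed genes was -1.37 for CHZ868 at 6 h and -1.46 for ruxolitinib at 6 h. With 5 CPM these medians were -1.29 and -1.33, and that of the CHZ868 6 h effect minus the washout effect was -1.50. After ruxolitinib for 6 h, 25 to 32 genes were lower by at least 1 log2 unit without overlap under other processing. With 1 library left out this count was 30 to 32. Leaving out 1 library at a time, the CHZ868 6 h median lay between -1.51 and -1.36 and that of the difference of CHZ868 effects between -1.73 and -1.56. The number of genes that fell with CHZ868 at 6 h lay between 35 and 37 over all alternatives, and 1 rose in each. With 1 library left out, 35 to 36 fell, among 2436 to 3171 genes lower and 2645 to 3255 higher in the whole table. After CHZ868 washout, leaving out 1 library gave 0 to 7 genes higher, 0 to 2 lower and a median of 0.067 to 0.20. It was 4 higher without DMSO_wash_exp3 replicate 2 and 7 without replicate 3, among 594 and 759 genes higher in the whole table. Without DMSO_wash_exp3 replicate 1 or any CHZ_wash library, at most 1 of all genes passed in either direction. Of the listed genes, 0 were then higher and 0 lower. Without the mean-variance trend 0 were higher and 0 lower, and with quantile normalization 2 were lower. For the difference of washout effects, leaving out 1 library gave 0 to 2 genes higher, 0 to 3 lower and a median of -0.22 to -0.083. It gave 0 and 0 without the trend. The ruxolitinib washout count stayed at 0 under every alternative run. With 1 library left out, at most 1 of all genes passed there in either direction. For alternatives other than leaving out 1 library, and for ruxolitinib at 6 h, counts over all genes are not given here. Those counts are not set against a background.

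The replicate number as a block was fitted as well. After CHZ868 washout 2 of the listed genes were then higher in limma's test. For the difference of washout effects 0 were higher and 0 lower (Isg15 adjusted p = 0.0938, Isg20 adjusted p = 0.105). The matching counts over all genes are not given here, so these counts are not set against a background. Deviations of libraries with the same number from their group means correlated at r between -0.0654 and 0.0871. That gave no sign of pairing, but it cannot exclude shared cultures or preparation. Whether the block is apt is therefore not known. Alternatives for single genes were run for the 39 listed genes at 6 h, 5 genes in each washout, 7 in the difference of CHZ868 effects and 2 in that of washout effects. Among these the sign changed in 3 cases, none of which passed a test. Isg20 in the difference of CHZ868 effects lay between -0.104 and 0.137 with 1 library left out, below 0 in 5 of 12 fits, and Isg15 in ruxolitinib washout between -0.0902 and 0.0617. Irf2 in ruxolitinib at 6 h, which had no test, lay between -0.327 and 0.0165. The causes were not tested. Lgals3bp at 6 h had an adjusted p of 0.0528 without the trend, and Psme1 passed with quantile normalization (0.0145).

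With 3 libraries a group, differences in low genes such as Mx1, Rsad2 and Ifih1 are imprecise. Tables were normalized separately, the ruxolitinib 6 h comparison crosses tables without a test, and the depth of the ruxolitinib washout table is unknown.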
